A study of Mus musculus with 12 samples.

Results

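TF group 2 was a culture of mouse embryonic fibroblasts given 5 cardiac factors together, and it was compared with the negative control to find which genes differed after 7 days of doxycycline. The groups were read from the array titles, with no measured value used, and gave 3 arrays of TF group 2 and 3 of the negative control, 6 of the 12 arrays of the series. All 22626 probe sets other than the control probe sets of the Affymetrix Mouse Genome 430A 2.0 array were kept, and they stood for 12393 genes with a symbol. The C57BL/6 fibroblasts of TF group 2 carried inducible lentiviral vectors for GATA4, TBX5, MEF2C, Mesp1 and SMARCD3 together with M2rtTA, the transactivator that doxycycline switches on. The negative control carried the M2rtTA vector only. Fibroblasts of every group therefore shared M2rtTA and doxycycline, and per the study's methods also valproic acid, a histone deacetylase inhibitor, and extra serum. The other arrays were TF group 1 (GATA4, TBX5 and MEF2C) and TF group 3 (the 5 factors plus MYOCD and SRF), 3 of each. RNA came from whole cultures that were not sorted for cells that had taken up every vector, and the vectors carried human coding sequences except for mouse Mesp1. Per the labels the 3 arrays of each group are biological replicates, without saying that they came from separate embryos or cultures, so the p-values measure the spread between these samples.

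GATA4 (a zinc finger protein), TBX5 (a T-box protein) and MEF2C (a MADS-box protein) are DNA-binding regulators that act together in the embryonic heart, where they switch on genes of the contractile apparatus. MESP1 is a basic helix-loop-helix factor that marks the earliest cardiovascular mesoderm, and SMARCD3, also called BAF60c, belongs to the BAF complex, which moves nucleosomes and opens chromatin for such factors. Heart muscle is recognised by its sarcomeres (thin actin and thick myosin filaments anchored at Z-discs), by a sarcoplasmic reticulum that stores calcium, by electrical coupling through connexins and by fatty acid oxidation. Embryonic fibroblasts in culture divide, secrete matrix and express few of these genes.

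Signals are the deposited intensities on a linear scale. A log2 change is the mean log2 signal of TF group 2 minus that of the negative control, with its SE, from 3 arrays a group and a limma fit to all 12 arrays. A gene was called when its Benjamini-Hochberg adjusted p over all 12393 genes was under 0.05 and its fold was over 1.5. Where the mean log2 signal of the dimmer group was under 5 (a signal of 32), each of its arrays under 32 was set to 32 before the fold was computed, and the fold is written as "at least". In all, 1918 genes were called higher, 15.5% of those tested, and 1259 were called lower, 10.2%. Among single probe sets, 3111 (13.7%) were called higher and 2258 (9.98%) lower. The 6 arrays did not overlap between groups at 1894 of the genes called higher and 1248 of those called lower. The calls came from these same arrays, so this separation adds no support of its own. Changes of 4-fold or more were found for 169 genes that rose and 152 that fell, and changes of 16-fold or more for 30 and 4. The median change of all 12393 genes was 0.06.

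Arrays of TF group 2 correlated with each other at 0.964 to 0.965 and with the negative control at 0.922 to 0.928 over all probe sets. The synthetic poly-A spikes added to each RNA were brighter in TF group 2 by 0.67 log2 units (exact permutation test, two-sided p = 0.1, the smallest that 3 against 3 arrays can give). The 18S ribosomal RNA probe sets were 1.05 log2 units brighter (exact permutation p = 0.1). Another set of control probe sets, the hybridization controls, was brighter by 0.15 (9.71 against 9.56, exact permutation p = 0.1). What the spike difference owes to the RNA of the cells was not tested. Scaling the arrays to equal spikes, called spike scaling below, lowers the log2 change of every gene by that same 0.67. The spikes also differed between negative control arrays (7.33, 6.62 and 6.79), with an SD of 0.37 against 0.03 in TF group 2. As all groups share 1 estimate of the spread, this scaling can also cost calls by widening that spread. It moved the median of all genes to -0.61 and the calls to 573 genes higher and 5064 lower. Most lists had fewer genes called higher and more called lower under this scaling, so the counts with it are given beside those as deposited. List counts are to be read against 15.5% higher and 10.2% lower of all genes as deposited, or 573 and 5064 of 12393 with this scaling. Of the genes named below as higher than the negative control those that lost their call with it are said to have done so.

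Of the 5 delivered factors, 3 were higher in TF group 2 by at least 1 probe set and 2 were not. Mesp1 signal was 2122, 2146 and 1996 on the TF group 2 arrays and 88.2, 180 and 124 on the negative control arrays, a log2 change of 4.06 ± 0.22 (16.7-fold, adjusted p = 4.71e-07). Mef2c has 5 probe sets, and the brightest gave 534, 519 and 581 against 77.5, 69.6 and 85.2 (2.82 ± 0.13, 7.05-fold, adjusted p = 1.96e-07). The other 4 Mef2c probe sets changed by -0.12, -0.03, 0.59 and 0.50 and were not called. Smarcd3 gave 924, 877 and 955 against 350, 249 and 292 (1.64 ± 0.13, 3.12-fold, adjusted p = 5.36e-06), so that the negative control already had a clear Smarcd3 signal. TF group 1, which was not given SMARCD3, had 727, 574 and 720, and TF group 2 was not called against it (a difference of 0.46). The part of the SMARCD3 vector in the Smarcd3 rise was not tested. For Mesp1, Mef2c and Smarcd3 every TF group 2 array lay above every negative control array. Tbx5 changed by 0.01 at its brighter probe set, with 97.5, 98.7 and 80.3 against 78.0, 83.7 and 117, and its second probe set and both of Gata4 had mean signals under 32 in both groups. The array probes were designed on mouse sequence, and how they pair with human GATA4 and TBX5 transcripts was not tested. The study's methods report expression of the delivered factors by qualitative RT-PCR.

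MYOCD and SRF, partners in smooth and cardiac muscle transcription that only TF group 3 received, were also measured. Srf fell in TF group 2, from 767, 871 and 745 in the negative control to 434, 534 and 433 (-0.77 ± 0.11, 1.71-fold, adjusted p = 0.000375), and its second probe set changed by -0.94. Myocd stood at 80.9, 72.3 and 71.0 against 60.1, 47.7 and 34.7 (0.69 ± 0.19, adjusted p = 0.0145). The arrays of the groups did not overlap at Myocd, but its call was lost without negative control replicate 3, where the change was 0.48, without TF group 2 replicate 1, and with median, quantile or spike scaling. The TF group 3 arrays, labelled as given both, did not stand higher. Myocd was 54.7, 42.2 and 39.1 there, under every TF group 2 array, but that difference (0.73 ± 0.19, adjusted p = 0.0371) lost its call with spike scaling and without any 1 of 5 arrays. Srf was 489, 432 and 401 there, which overlapped TF group 2 (a difference of 0.08, not called) and lay under the negative control. The pairing of the mouse probes with human MYOCD and SRF transcripts was not tested.

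**Figure D1:**
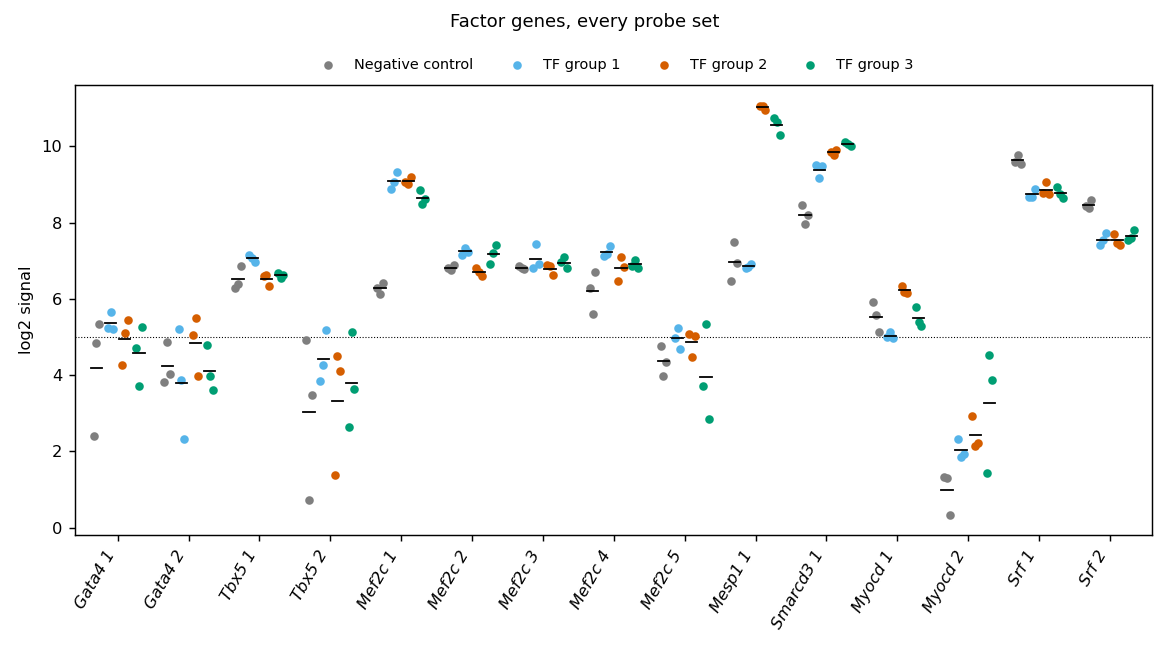
Log2 signal of every probe set of the delivered factors and of Myocd and Srf on all 12 arrays, with points for arrays coloured by group, ticks for group means and a dotted line at log2 5 (a signal of 32). TF group 2 stands above the negative control at Mesp1, Smarcd3 and 1 of 5 Mef2c probe sets, while the Gata4 points lie near or under the dotted line in both groups.

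Sarcomere genes gave some of the largest increases of the comparison. The 3 with the largest increase among thin filament, thick filament and Z-disc genes are shown by the 250 bases before their RefSeq transcription start (GRCm38.p6, written 5′ to 3′ on the strand of the gene), because the delivered factors and their partners bind motifs of known letters in promoters. Capitals mark matches on either strand to the GATA motif, AGATAA. They also mark the T-box motif, which was searched as AGGTGT. The E-box that basic helix-loop-helix proteins bind was searched as CAGCTG and is in capitals too. The MEF2 site and the CArG box bound by SRF were searched as well, and these 3 stretches held neither. The windows are chr1:66945057-66945306 on the minus strand for Myl1, chrX:157698723-157698972 on the plus strand for Smpx and chr8:45885237-45885486 on the plus strand for Pdlim3.
Myl1: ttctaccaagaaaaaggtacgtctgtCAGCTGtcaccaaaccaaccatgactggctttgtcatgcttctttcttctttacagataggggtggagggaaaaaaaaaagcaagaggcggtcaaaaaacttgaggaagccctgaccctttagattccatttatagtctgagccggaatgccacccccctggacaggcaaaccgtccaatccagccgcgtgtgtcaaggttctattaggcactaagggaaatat
Smpx: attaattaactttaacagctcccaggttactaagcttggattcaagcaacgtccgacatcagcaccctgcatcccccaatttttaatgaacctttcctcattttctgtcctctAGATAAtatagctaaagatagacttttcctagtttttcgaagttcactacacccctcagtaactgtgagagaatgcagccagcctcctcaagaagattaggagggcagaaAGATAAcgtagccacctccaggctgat
Pdlim3: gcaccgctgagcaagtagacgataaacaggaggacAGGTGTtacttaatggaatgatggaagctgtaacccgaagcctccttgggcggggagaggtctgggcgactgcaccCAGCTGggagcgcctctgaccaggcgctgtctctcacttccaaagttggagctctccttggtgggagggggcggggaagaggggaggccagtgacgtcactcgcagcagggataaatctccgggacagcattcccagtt
The Myl1 window held an E-box that begins 224 bases before the start. The Smpx window held GATA motifs at 137 and 27 bases before it, and the Pdlim3 window a T-box motif at 215 and an E-box at 139. Motifs were searched on both strands from 250 bases before the start to 50 after it. Of the 60 measured sarcomere genes, 49 had such a window, and the E-box was in 18 of them (36.7%, against 16.1% of 27025 promoters of the same length). The CArG box was in 9 (18.4%, against 1.57%), the MEF2 site in 4 (8.16%, against 0.566%), GATA in 9 (18.4%, against 11.4%) and the T-box motif in 4 (8.16%, against 13.9%). These list shares take in members that were not called. Of 1517 genes called higher with a window, 17.5% held the E-box, 1.38% the CArG box and 0.593% the MEF2 site. GATA was in 6.59% of them and the T-box motif in 12.9%. In the same order, the shares of all 9887 measured genes with a window were 15.4%, 1.53%, 0.546%, 7.84% and 11.9%. All these shares are descriptions of letters and were not tested.

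Myl1, the light chain of fast skeletal and embryonic muscle myosin, had signals of 8268, 8687 and 8705 in TF group 2 against 40.4, 24.9 and 19.1 in the negative control (8.32 ± 0.30, at least 247-fold, adjusted p = 4.49e-08). Mybpc3, the cardiac form of myosin-binding protein C, had 2108, 2352 and 2170 against 104, 85.2 and 83.7 (4.61 ± 0.10, 24.4-fold, adjusted p = 4.23e-09). Myh1, a fast skeletal myosin heavy chain, had 994, 823 and 862 against 37.2, 30.8 and 45.2 (4.58 ± 0.16, 23.9-fold), and its near relative Myh2 rose 5.09-fold. The atrial and embryonic light chain Myl4, chosen after its values were seen, rose 3.01-fold, from 119, 119 and 108 to 344, 333 and 363. The groups did not overlap at any of these 5 genes. The heavy chains of heart muscle stood apart from them: Myh6 had a mean under 32 in both groups, with 14.3, 0.415 and 1.46 against 3.99, 4.45 and 2.58, and Myh7 had 74.5, 134 and 128 against 16.4, 58.6 and 77.3, values that overlapped (1.37 ± 0.59, adjusted p = 0.0912). The atrial light chain Myl7 had a log2 change of 0.17 and was not called. Of 15 measured thick filament genes 6 rose (40%, against 15.5% of all genes) and none fell, with a median change of 0.81. With spike scaling 5 rose and 1 fell. Without TF group 2 replicate 1 or negative control replicate 1, Mybph, a relative of myosin-binding protein C, was added as lower. In RNA of whole cultures, more cells with a given message and more message per cell cannot be told apart, and the same holds for fewer cells and less message.

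On the thin filament 4 troponin genes were called higher and skeletal actin fell. Tnnc1, troponin C of slow and cardiac muscle, went from 70.9, 93.7 and 70.7 to 1764, 1974 and 1799 (4.57 ± 0.11, 23.7-fold, adjusted p = 7.05e-09). Tnnt2, cardiac troponin T, reached 2027, 2015 and 2045 from 90.6, 95.4 and 98.5 (4.42 ± 0.05, 21.4-fold, adjusted p = 1.46e-10), read by a probe set whose suffix warns that it can match other transcripts. Tnni1, the slow skeletal and fetal troponin I, reached 129, 153 and 116 and was at least 4.12-fold higher. Tnni3, cardiac troponin I, was called at 1.35 ± 0.48 with both means under 32 (13.3, 12.8 and 32.3 against 8, 9.95 and 4.15), and the call was lost with spike scaling, without negative control replicate 1 or 3 and without TF group 2 replicate 3. The actin nucleator Lmod2 reached 112, 93.1 and 83.7 from 1.81, 10.5 and 2.21, at least 2.98-fold, and its log2 change of 4.78 was 5.58 without negative control replicate 2. Acta1, skeletal alpha-actin, was the gene of the list that fell: 233, 268 and 222 against 1422, 1613 and 1551 (-2.67 ± 0.08, 6.35-fold lower, adjusted p = 2.06e-08). All 6 arrays separated at each of these genes. Of 19 measured members 6 rose and 1 fell, with a median of 0.30, which turned to -0.37 with spike scaling (4 higher, 7 lower). Without TF group 2 replicate 1 Lmod1 was added as lower.

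Z-disc genes moved in both directions. Smpx, a small stress-responsive protein of striated muscle, had 3962, 4165 and 3868 against 8.44, 8.58 and 26.2 (8.34 ± 0.36, at least 125-fold, adjusted p = 1.23e-07), and Pdlim3, a LIM protein bound to alpha-actinin, had 1662, 1668 and 1656 against 27.2, 11.2 and 12.6 (6.73 ± 0.28, at least 51.9-fold, adjusted p = 9.57e-08). Ldb3, another alpha-actinin partner, rose 11.8-fold, from 75.0, 65.8 and 75.0 to 821, 895 and 819. Titin, the elastic filament encoded by Ttn, was at least 6.26-fold higher, with 195, 208 and 198 against 23.3, 23.8 and 25.0. Falls were smaller and took in the LIM proteins Fhl1 (-0.69 ± 0.06) and Fhl2 (-0.76 ± 0.06) and the muscle ubiquitin ligase Fbxo32 (-0.94 ± 0.15). The arrays of the groups did not overlap at any of these genes. Actn2, the alpha-actinin of the Z-disc itself, had mean signals under 32 in both groups. Of 26 measured members 10 rose (38.5%, against 15.5% of all genes) and 3 fell (11.5%, against 10.2%). The median of 0.66 became -0.01 with spike scaling (8 higher, 7 lower).

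**Figure D2:**
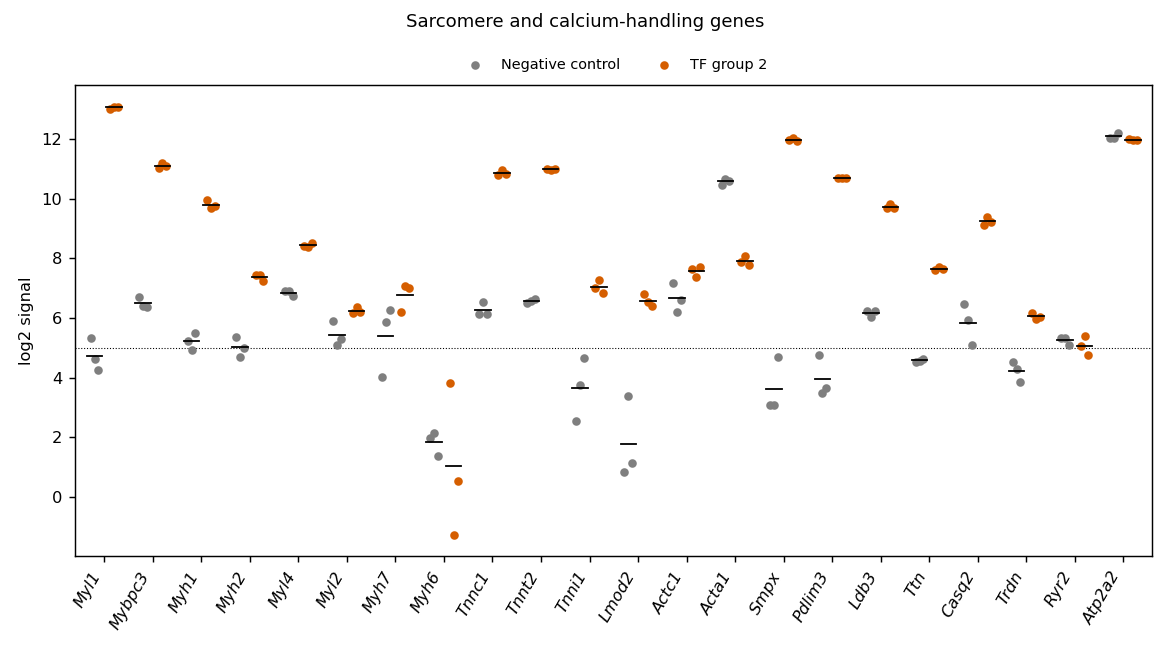
Log2 signals of 22 sarcomere and calcium handling genes on the 3 negative control arrays (grey) and the 3 TF group 2 arrays (orange), with ticks for means and a dotted line at log2 5. Myl1 and Smpx show the widest gap, Acta1 lies the other way, and Myh6 stays under the dotted line in both groups.

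Calcium handling genes rose in part. Casq2, the calcium buffer of the cardiac sarcoplasmic reticulum, had 557, 674 and 589 against 89.1, 60.9 and 34.4 (3.40 ± 0.28, 10.6-fold, adjusted p = 6.97e-06). Triadin (Trdn), which ties calsequestrin to the release channel, was at least 2.08-fold higher, and S100a1, a calcium sensor of muscle, rose 3.10-fold from 178, 236 and 255 to 693, 672 and 684. Phospholamban (Pln), the brake on the calcium pump, had 69.1, 57.4 and 81.0 against 44.7, 55.4 and 30.3 (0.70 ± 0.20). Its call was lost without negative control replicate 3 (0.46), without TF group 2 replicate 3 and with spike or quantile scaling. The pump itself, Atp2a2, had 4072, 4036 and 4013 against 4235, 4214 and 4668 (-0.11), and the cardiac release channel Ryr2 stood near the floor in both groups (-0.18). Neither was called. Of 19 members measured 6 rose and none fell, with a median of 0.40 that turned to -0.27 with spike scaling (4 higher, 6 lower), with 4 higher without negative control replicate 3 and Casq1 added as lower without TF group 2 replicate 1.

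Among natriuretic peptide genes, Nppa, the atrial peptide, had 139, 130 and 153 against 30.2, 28.3 and 53.3 (1.97 ± 0.24, 3.92-fold, adjusted p = 0.000101). Nppc, the C-type peptide, was at least 1.31-fold higher, and its receptor Npr2 had a change of 0.93 ± 0.06, whose call was lost with spike scaling. Nppb, the B-type peptide, had 324, 269 and 371 against 199, 294 and 245 (0.39 ± 0.15, adjusted p = 0.052), values that overlapped. The list of 7 had 3 higher and none lower, and its median of 0.39 turned to -0.28 with spike scaling (2 higher, 1 lower).

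Cardiac regulators that were not delivered were called higher at about the share of all genes. Hopx, a homeodomain protein of the embryonic heart without DNA binding of its own, rose from 268, 299 and 247 to 1764, 1817 and 1800 (2.73 ± 0.08, 6.63-fold, adjusted p = 1.98e-08). Gata6 had 165, 142 and 166 against 77.2, 82.5 and 78.3 (0.99 ± 0.07), a call lost with spike scaling. Tbx20 was called at 1.28 ± 0.41, but not without negative control replicate 3 (0.83), without TF group 2 replicate 1 or 3, or with spike scaling. Hey2, a repressor downstream of Notch, fell to 39.8, 47.7 and 37.6 from 66.1, 74.6 and 76.4. The core regulators Nkx2-5 (-0.24) and Hand2 (0.13) were not called, and Isl1 had means under 32 in both groups. Of 21 members measured 3 rose (14.3%, against 15.5% of all genes) and 1 fell (4.76%, against 10.2%), with a median of -0.04. With spike scaling 1 was higher and 7 lower (median -0.72). The count of falls became 2 without negative control replicate 2 (Isl1 added), negative control replicate 3 (Hey1) or TF group 2 replicate 1 (Tead1).

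Early mesoderm genes held more falls than rises. Eomes, a T-box gene of the primitive streak, rose from 55.4, 48.9 and 28.5 to 114, 110 and 114 (1.40 ± 0.23, 2.64-fold), and Msx2 was called at 0.92 ± 0.19, lost with spike scaling. Snai1, the zinc finger repressor of epithelial-mesenchymal transition, fell 2.10-fold, from 332, 313 and 290 to 135, 149 and 161. Zeb2, of the same programme, fell 1.81-fold, the receptor Pdgfra 1.86-fold and the forkhead gene Foxc2 1.65-fold. Of 23 members measured 2 rose and 4 fell, with a median of -0.22, and 1 was higher and 10 lower with spike scaling (median -0.90).

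Smooth muscle genes were mixed. Actg2, enteric smooth muscle actin, fell from 5244, 6407 and 5625 to 2494, 2191 and 2887 (-1.19 ± 0.12, 2.29-fold lower), and calponin (Cnn1) fell from 2101, 2482 and 2445 to 916, 988 and 989 (-1.28 ± 0.09, 2.42-fold lower). Notch3, the Notch receptor of mural cells, rose 4.73-fold to 795, 888 and 818 from 194, 167 and 168, and Rgs5, a pericyte regulator of G protein signalling, rose 3.18-fold. The abundant Acta2 stayed at 13220, 12839 and 14656 against 13749, 14143 and 15958 (-0.11), and Tagln changed by -0.35. Neither was called. Sgca, a sarcoglycan, was called at 1.91 ± 0.62 with overlapping arrays (60.9, 82.0 and 56.6 against 57.9, 11.4 and 8.04), and the call held only with negative control replicate 1 left out (2.77) among the 6 arrays that could be left out. Of 22 members measured 5 rose and 7 fell, with a median of -0.24, and 3 were higher and 13 lower with spike scaling (median -0.91). Among 18 skeletal muscle regulators the acetylcholine receptor subunit Chrna1 was the 1 gene called, at 0.63 ± 0.19. That call was lost without negative control replicate 2 or 3 or TF group 2 replicate 1 or 3 and with each scaling, and without negative control replicate 1 it stood at 0.81 and Chrne was called beside it. With spike scaling none of the 18 was higher and 4 were lower. Myod1 (-0.08) and Myog (both means under 32) were not called.

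Genes of cell junctions held some of the clearest single changes. Dsp, desmoplakin, which links desmosomes to intermediate filaments, had 2177, 2324 and 2098 against 14.1, 13.2 and 12.2 (7.38 ± 0.10, at least 68.7-fold, adjusted p = 1.55e-10). Perp, a desmosomal tetraspan protein and p53 target, rose 7.75-fold to 2488, 2387 and 2214 from 308, 257 and 357. Plakoglobin (Jup) rose 2.94-fold, and Dsg2 had a change of 0.97 ± 0.23 that was lost with spike scaling. Dsc3 was called lower (-0.92 ± 0.28), a call lost without negative control replicate 1 or 3 or TF group 2 replicate 1 or 3. Of 11 desmosome genes measured 4 rose (36.4%, against 15.5% of all genes) and 1 fell (9.09%, against 10.2%). The median of 0.47 turned to -0.21 with spike scaling (3 and 3). Connexins went both ways: Gja5 (connexin 40), of the atria and conduction system, was at least 1.37-fold higher with 57.7, 39.0 and 37.2 against 2.52, 6.06 and 6.18, while Gjb2 (connexin 26) fell 9.07-fold, from 1388, 1461 and 1491 to 163, 145 and 171, and Gjc1 (connexin 45) fell 4.04-fold, from 1208, 1100 and 1228 to 285, 272 and 320. Gja1, the main ventricular connexin 43, changed by -0.26 and was not called. Of 11 connexins 2 rose (18.2%, against 15.5% of all genes) and 3 fell (27.3%, against 10.2%), with a median of -0.24. With spike scaling 1 was higher and 6 lower.

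Of 45 channels of excitable cells 7 rose (15.6%, against 15.5% of all genes) and 2 fell (4.44%, against 10.2%), with a median of 0.32 that turned negative with spike scaling (2 higher, 9 lower). Scn3b, an auxiliary subunit of sodium channels, had 428, 381 and 401 against 43.7, 51.5 and 40.4 (3.16 ± 0.11, 8.96-fold, adjusted p = 4.4e-08), and Kcnj15, an inward rectifier, rose 3.83-fold. Kcnh2, the channel of the rapid delayed rectifier current, was called at 1.05 ± 0.16 and Kcnmb4 at 1.23 ± 0.12, and both calls were lost with spike scaling. Kcnab1, a potassium channel beta subunit, fell 4.59-fold, from 501, 405 and 396 to 110, 70.8 and 106. Of 16 genes of the dystrophin complex 3 rose and 1 fell (2 higher, 3 lower with spike scaling). Dtna, dystrobrevin alpha, rose 3.69-fold to 320, 310 and 314 from 84.3, 78.7 and 93.2, and Sgcd, delta-sarcoglycan, fell to 28.6, 21.8 and 31.8 from 49.3, 73.6 and 65.0, at least 1.93-fold.

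The largest increases outside muscle were found among secreted proteins, enzymes and transporters. Grp, which encodes gastrin-releasing peptide, had 4916, 5193 and 5042 against 9.34, 20.2 and 12.3 (8.57 ± 0.41, at least 158-fold, adjusted p = 2.20e-07). F13a1, the A subunit of coagulation factor XIII, had 3354, 3734 and 3374 against 15.4, 14.9 and 15.3 (7.84 ± 0.10, at least 109-fold). Carbonic anhydrase 3 (Car3), abundant in slow muscle and fat, had 3572, 3043 and 3441 against 7.25, 14.3 and 19.9 (8.04 ± 0.31, at least 105-fold). Its relative Car2 rose 52.3-fold, from 55, 33.8 and 42.1 to 2207, 2272 and 2229. Aldh1a1, an enzyme that makes retinoic acid, rose 77.1-fold to 3691, 3966 and 3792 from 40.2, 65.0 and 46.4. The protease inhibitor Serpinb1a rose 63.1-fold, the tetraspanin Tspan8 at least 48.4-fold, the serotonin transporter Slc6a4 at least 45.9-fold, the acute phase gene Serpina3n 32.2-fold and Scel, a protein of cornified epithelium, 24.9-fold. H2-Q10, a class I histocompatibility gene of a family with near-identical members, was 33.9-fold higher. The arrays of the groups did not overlap at these genes, which was a condition for naming them among the largest increases. In the list of 22 carbonic anhydrases and annexins, 10 rose and none fell, with a median of 0.69 (0.02 with spike scaling, 4 higher and 9 lower). Car8 was at least 3.95-fold higher and Anxa10 at least 13.4-fold, with 458, 417 and 416 against 7.72, 16.5 and 3.77.

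The deepest falls were mostly genes of dividing cells. U90926, a transcript with no role assigned here, fell 27.4-fold, from 2105, 2154 and 2176 to 87.6, 49.6 and 111 (-4.77 ± 0.41, adjusted p = 8.77e-06). Lrr1, a substrate receptor of a ubiquitin ligase, was at least 16.2-fold lower. C1qtnf3, a secreted C1q-like protein, fell 11.3-fold to 77.9, 77.7 and 71.6 from 1047, 760 and 776, and Tnmd (tenomodulin), a marker of tendon cells, fell 10.6-fold to 132, 156 and 132 from 1356, 1550 and 1528. The others among the 15 largest falls, such as Bub1, Birc5, Mki67, Cdc20, Tk1, Ube2c, Top2a and Cenpe, belong to the cell cycle lists below.

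Mitosis genes fell nearly throughout: 52 of 53 measured were called lower and none higher, against 10.2% of all genes called lower, with a median of -2.72 (-3.39 with spike scaling). The exception was Ckap5, with 313, 309 and 301 against 497, 387 and 334 (-0.38). The 3 with the largest fall are shown by the 250 bases before their RefSeq start (GRCm38.p6), because cell cycle genes are often bound there through the CHR element and CCAAT boxes. Capitals mark the CHR (TTTGAA), the CCAAT box (CCAAT) and the E2F site (TTTCCCGC) on either strand. The windows are chr2:127831860-127832109 on the minus strand for Bub1, chr11:117848987-117849236 on the plus strand for Birc5 and chr7:135716380-135716629 on the minus strand for Mki67.
Bub1: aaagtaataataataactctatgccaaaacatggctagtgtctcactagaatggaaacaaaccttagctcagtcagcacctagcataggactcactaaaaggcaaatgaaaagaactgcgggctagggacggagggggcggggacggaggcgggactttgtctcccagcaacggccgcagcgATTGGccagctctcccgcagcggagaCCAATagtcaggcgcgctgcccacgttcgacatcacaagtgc
Birc5: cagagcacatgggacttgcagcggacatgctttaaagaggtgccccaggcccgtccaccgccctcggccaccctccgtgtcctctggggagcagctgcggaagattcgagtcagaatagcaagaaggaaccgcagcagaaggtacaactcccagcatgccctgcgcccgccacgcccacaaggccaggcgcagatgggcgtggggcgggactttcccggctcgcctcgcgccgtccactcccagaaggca
Mki67: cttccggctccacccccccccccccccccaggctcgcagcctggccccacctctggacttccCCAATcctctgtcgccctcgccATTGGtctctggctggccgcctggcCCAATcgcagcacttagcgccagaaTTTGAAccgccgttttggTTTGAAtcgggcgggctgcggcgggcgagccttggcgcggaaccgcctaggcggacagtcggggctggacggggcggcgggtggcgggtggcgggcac
The Bub1 window held CCAAT boxes at 68 and 42 bases before the start. The Mki67 window held CCAAT boxes at 188, 166 and 141 bases and CHR elements at 116 and 98, and the Birc5 window held none of the 3 motifs. Over the same windows extended by 50 bases, the CHR was found in 32 of 45 mitosis genes with a promoter (71.1%, against 18.1% of all 27025) and the CCAAT box in 35 (77.8%, against 37.9%). Among 41 DNA replication genes the E2F site was in 5 (12.2%, against 1.11% of all and 1 mitosis gene) and the CCAAT box in 24 (58.5%). These shares describe letters and were not tested.

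Bub1, a kinase of the spindle checkpoint, had 88.7, 39.9 and 61.1 in TF group 2 against 1012, 1105 and 962 (-4.09 ± 0.24, 17.1-fold lower, adjusted p = 6.58e-07). Birc5 (survivin), of the chromosomal passenger complex, had 168, 162 and 166 against 2618, 2742 and 2610 (-4.01 ± 0.12, 16.1-fold lower), and the proliferation marker Mki67 had 124, 97.5 and 82.9 against 1489, 1447 and 1324 (-3.82 ± 0.14, 14.2-fold lower). The anaphase activator Cdc20 and the ubiquitin-conjugating enzyme Ube2c fell 12.0-fold and 11.3-fold, topoisomerase Top2a 10.6-fold and the kinetochore motor Cenpe 10.6-fold. All 6 arrays separated at each of them, which was a condition for naming them among the largest falls. DNA replication genes fell in 43 of 47 cases with none higher (median -1.88). Thymidine kinase Tk1 fell from 1203, 1384 and 1285 to 115, 90.3 and 122 (11.9-fold), the primase subunit Prim1 10.4-fold, the licensing factor Cdc6 10.3-fold and the clamp Pcna, chosen here after its values were seen, 3.42-fold from 5874, 6325 and 6526 to 1857, 1736 and 1872. Mcm2, Orc5, Rpa3 and Tyms were not called. Of 39 DNA repair and checkpoint genes 18 fell (33 with spike scaling), with Rad51ap1 11.3-fold and Brca1 6.24-fold lower, and 1 rose. That gene, Xpa, a damage-recognition protein, had a change of 0.68 ± 0.11 and was lost with median or spike scaling and without TF group 2 replicate 2 (0.57), while Ddb2 was added as higher without negative control replicate 1 or without TF group 2 replicate 3.

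Regulators of entry into the cycle split. The activating cyclin Ccne2 fell 9.14-fold, from 776, 595 and 729 to 105, 59.3 and 71.0, the late E2F family member E2f8 5.73-fold and Mybl2, a subunit of the complex that activates mitotic genes, 4.91-fold. The retinoblastoma gene Rb1 rose 2.83-fold, from 363, 275 and 282 to 849, 935 and 804, and its relative Rbl2 had a change of 1.06 ± 0.08, lost with spike scaling. Ccnd1, cyclin D1, had 4726, 4931 and 5012 against 3602, 3728 and 3583 (0.43) and was not called. Of 24 such genes 5 rose and 12 fell, and 1 was higher and 16 lower with spike scaling. Of 35 CDK inhibitors and p53 targets 21 rose and 3 fell, against 15.5% of all genes called higher, with a median of 0.78 (0.11 with spike scaling, 6 higher and 7 lower). Cdkn2a, the locus of the inhibitors p16 and p19Arf, rose 9.40-fold, from 337, 602 and 508 to 4244, 4298 and 4701 (3.23 ± 0.18, adjusted p = 4.62e-07). The death receptor Fas rose 6.53-fold, from 79.2, 90.1 and 113 to 633, 555 and 640, and the stress protein Trp53inp1 4.53-fold, from 1048, 907 and 966 to 4235, 4467 and 4524. The inhibitors Cdkn1c (3.73-fold), Cdkn2c (2.14-fold) and Cdkn2d (1.56-fold) fell, and Cdkn1b (-0.43) was not called. Groups did not overlap at any of these called genes.

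Lysosome and vacuolar ATPase genes rose together. Of 53 measured, 40 were called higher and 1 lower, against 15.5% and 10.2% of all genes, with a median of 0.99. With spike scaling the median was 0.32, and 15 were higher and 5 lower. Cathepsin F (Ctsf), a cysteine protease, rose from 46.1, 33.9 and 35.1 to 645, 683 and 583 (4.06 ± 0.11, 16.7-fold, adjusted p = 1.35e-08). Cathepsin H (Ctsh) rose 5.21-fold, from 158, 146 and 160 to 773, 828 and 813. The sialidase Neu1 rose 4.56-fold and the acid lipase Lipa 4.15-fold, the latter from 464, 444 and 464 to 1841, 1968 and 1895. These rises held with spike scaling. Cathepsin S (Ctss), a protease typical of antigen-presenting cells, was the member that fell: 2.19, 12.8 and 5.52 against 50.7, 56.1 and 66.4, at least 1.79-fold. Its log2 change of -3.42 was -2.77 without TF group 2 replicate 1. Without negative control replicate 3 Ctsc was added as lower. Tfeb, a regulator of lysosomal genes, had 119, 117 and 110 against 99.7, 110 and 128 (0.05) and was not called. Promoter windows of 44 lysosome genes held the CCAAT box in 36.4% and the E-box in 22.7%, against 37.9% and 16.1% of all promoters.

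**Figure D3:**
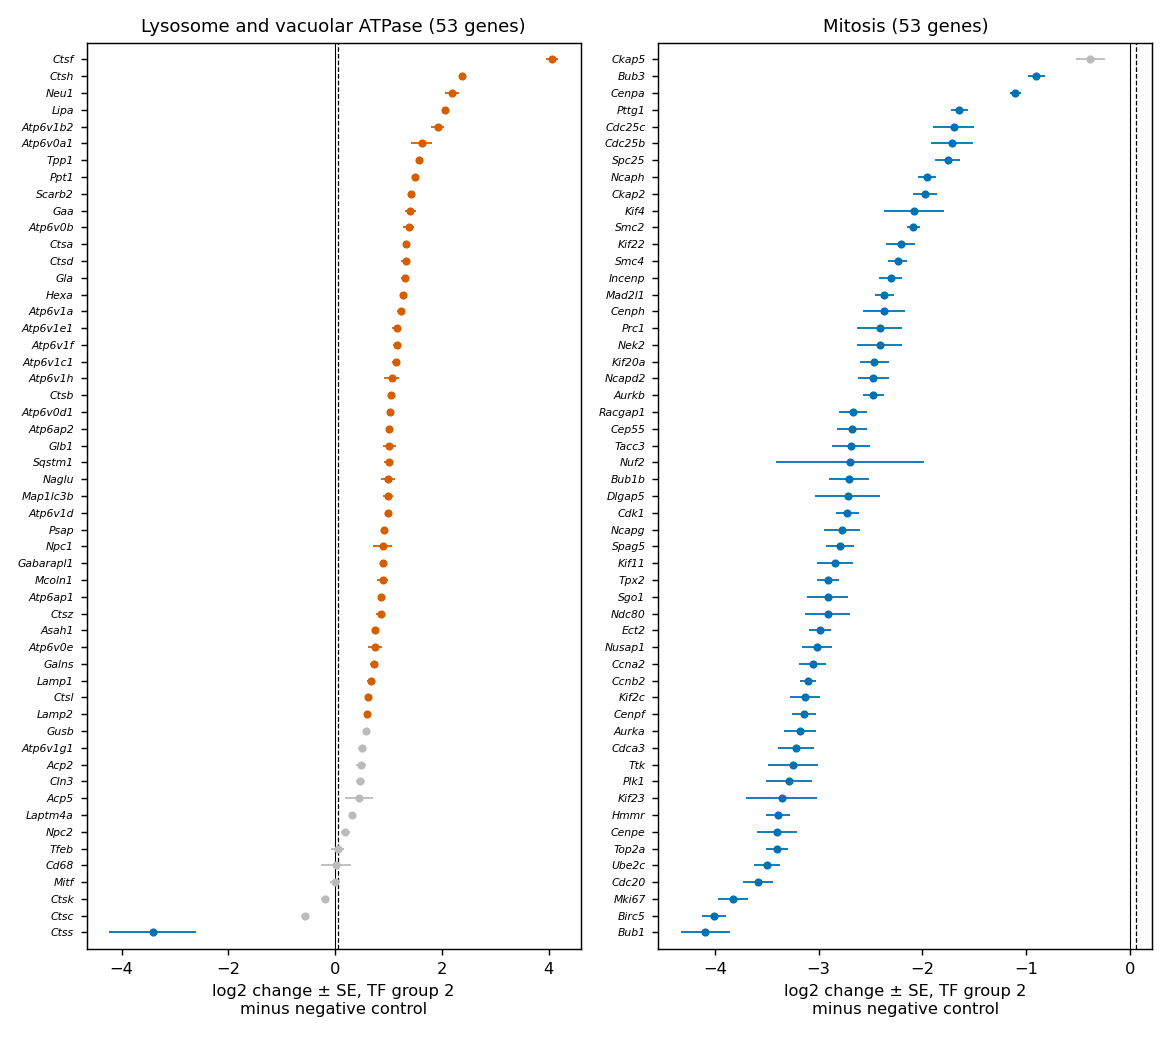
Log2 change of TF group 2 minus negative control with its SE for the 53 lysosome genes and the 53 mitosis genes, in order of size, with orange for called higher, blue for called lower and grey for not called, a solid line at 0 and a dashed line at the median of all genes. Of the lysosome genes 40 are orange and 1, Ctss, is blue, while 52 of the mitosis genes are blue and none is orange.

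Fuel metabolism shifted in parts. Of 35 genes of fatty acid oxidation and muscle energy 16 rose and 2 fell, with a median of 0.66 that became -0.01 with spike scaling (7 higher, 3 lower). Fabp3, the fatty acid carrier of heart, rose from 195, 225 and 210 to 2410, 2458 and 2217 (3.49 ± 0.07, 11.2-fold, adjusted p = 4.07e-09), and its fat cell counterpart Fabp4 fell from 373, 421 and 364 to 70.9, 53.3 and 42.1 (7.11-fold). Angptl4, a lipase inhibitor, rose 4.60-fold, lipoprotein lipase (Lpl) 3.56-fold and Pdk4, which holds back glucose oxidation, 3.02-fold. Pparg, the other gene that fell (at least 2.51-fold), lost its call without any 1 of 5 arrays and kept it only without TF group 2 replicate 3. Of 63 respiratory chain genes 5 were called higher, with changes of 0.59 to 0.89, and none lower. All 5 were lost with spike scaling, where 22 were lower, and 3 were left without negative control replicate 1. Of 26 glycolysis genes 9 rose and 1 fell, with a median of 0.41 that turned to -0.26 with spike scaling (3 higher, 9 lower). Ldhb, the heart-type lactate dehydrogenase, rose 4.21-fold from 633, 650 and 576 to 2526, 2652 and 2633, and Eno3, the muscle enolase, fell 3.78-fold while Eno2 rose 3.37-fold.

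Cholesterol synthesis genes fell. Of 20 measured 11 were lower and none higher, with a median of -0.67, and 19 were lower with spike scaling. Idi1, an isomerase of the mevalonate pathway, had 419, 473 and 310 against 1715, 1914 and 1763 (-2.18 ± 0.15, 4.55-fold lower, adjusted p = 2.38e-06). The epoxidase Sqle fell 2.59-fold, from 1325, 1359 and 1444 to 535, 504 and 556, and the synthase Lss 2.55-fold. Fdps fell 2.46-fold at its bright probe set, and its second probe set, with every signal under 32, gave an increase. Srebf2, the regulator of the pathway, changed by -0.46 and was not called. The CCAAT box was in 15 of the 16 promoters found for this list (93.8%, against 37.9% of all), a description with no test.

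Genes for making RNA and ribosomes leaned down. Of 47 spliceosome and hnRNP genes 24 fell and none rose (median -0.59, and all 47 lower with spike scaling), with Lsm2, of the ring that binds U6 RNA, down 3.53-fold from 814, 914 and 789 to 270, 193 and 256. Of 50 nucleolar genes 25 fell and none rose (median -0.59, and 48 lower with spike scaling). Lyar fell 3.95-fold, from 1422, 1597 and 1606 to 402, 388 and 381, and fibrillarin (Fbl), the methyltransferase of ribosomal RNA, 2.92-fold, from 3359, 3261 and 3805 to 1127, 1127 and 1313. Of 44 ribosomal protein genes 3 fell (Rpl12, Rpl14 and Rps25), none rose, and the median was -0.07, while with spike scaling 41 were lower and the median was -0.74.

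The matrix changed by gene rather than as a class. Of 30 collagens 6 rose (20%, against 15.5% of all genes) and 5 fell (16.7%, against 10.2%). The median of 0.02 turned to -0.08 with median scaling and -0.65 with spike scaling (2 higher, 17 lower). Col10a1, the collagen of hypertrophic cartilage, rose 5.31-fold to 385, 425 and 334 from 78.4, 89.9 and 51.7, and the basement membrane chain Col4a5 2.73-fold, while Col2a1 fell 3.70-fold. Col5a3 fell 3.15-fold at its brighter probe set only. The main fibroblast collagens Col1a1 (-0.39) and Col3a1 (0.06) were not called. Of 40 proteoglycans and elastic fibre genes 4 rose and 8 fell, and with spike scaling none was higher and 21 were lower. The microfibril gene Mfap4 fell 8.10-fold, from 583, 716 and 609 to 58.3, 92.4 and 88.8, and Mfap5 2.89-fold. Of 31 proteases and inhibitors 6 rose and 7 fell (3 higher, 17 lower with spike scaling). Adamts15, which cuts versican, rose 7.79-fold to 578, 451 and 423 from 55.2, 65.4 and 64.7, and the inhibitor Timp3 rose 3.27-fold to 7284, 7524 and 7671. Mmp3, stromelysin, fell 5.39-fold and the urokinase receptor Plaur 3.71-fold. Among 27 integrins and basement membrane genes 7 rose and 1, the fibronectin receptor Itga5, fell 2.16-fold. The median of 0.24 turned to -0.43 with spike scaling (1 higher, 7 lower), and Itga9 (3.13-fold) was the increase that held.

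Fibroblast identity genes held more falls than rises, though some abundant members stayed bright in TF group 2. Vimentin (Vim) had 13810, 14181 and 14520 against 13927, 14203 and 14896 (-0.02), and Thy1 had 1829, 2264 and 2174 against 2884, 3154 and 2824 (-0.50). Neither was called. Of 28 fibroblast identity genes 14 fell and 2 rose, against 10.2% and 15.5% of all genes, with a median of -0.61 (22 lower and 1 higher with spike scaling), and their summed signal was 37215 to 38621 in TF group 2 against 54594 to 56989. Meox2, a homeobox gene, fell to 22, 26.3 and 27.7 from 227, 209 and 210, at least 6.72-fold. Dlk1, a membrane protein of immature mesenchyme, fell 4.28-fold, the retinoid-binding protein Crabp1 4.03-fold and the limb and trunk regulator Osr1 2.42-fold. Cd34 rose 2.94-fold. Pi16, with means under 32 in both groups, lost its higher call with spike scaling and without negative control replicate 1 (1.04) or TF group 2 replicate 1 or 2.

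Secreted signals were split within each family. Of 43 chemokines and cytokines 10 rose and 11 fell, and 4 were higher and 21 lower with spike scaling. Ccl2, which draws monocytes, fell 4.50-fold, from 1323, 1475 and 1481 to 280, 355 and 320, and Tslp 5.02-fold, while Cxcl13 was at least 3.85-fold higher and Ccl8 3.45-fold. Of 43 interferon and antigen presentation genes 14 rose and 2 fell, with a median of 0.34 that turned to -0.33 with spike scaling (4 higher, 12 lower). Ifit1, an interferon-induced binder of viral RNA, rose 6.00-fold, from 89.4, 65.4 and 117 to 615, 478 and 506, and Ifitm1 4.41-fold. The 2 that fell were Ifi27l2a (4.28-fold) and Gbp2 (3.41-fold). Of 30 complement and coagulation genes 6 rose and 3 fell (3 higher, 7 lower with spike scaling). C1ra rose 3.03-fold and Cd55 3.13-fold, and the coagulation inhibitor Tfpi2 fell 10.3-fold, from 380, 433 and 415 to 35.0, 35.0 and 51.3. All these calls came with arrays that did not overlap between groups.

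Of 48 Wnt pathway genes 12 rose and 5 fell, with a median of 0.29 that turned to -0.38 with spike scaling (6 higher, 13 lower). Porcn, the enzyme that acylates Wnt ligands, rose 4.09-fold, from 83.1, 84.3 and 97.0 to 327, 392 and 362. Axin2, a feedback target, rose 3.91-fold and the secreted antagonists Sost (at least 4.84-fold) and Sfrp1 (3.43-fold) rose with it. The matricellular gene Ccn5 fell 2.73-fold and the R-spondin Rspo2 1.72-fold. The falls were 3 in place of 5 without negative control replicate 3 or TF group 2 replicate 2 or 3, as Fzd8 and Sfrp2 lost their calls, and Sfrp2 lost its call without each of the 6 arrays in turn (-0.69 to -0.56). In the TGF-beta and BMP list of 52, 7 rose (13.5%, against 15.5% of all genes) and 6 fell (11.5%, against 10.2%), shares near those of all genes. With spike scaling 2 were higher and 29 lower (median -0.70). The activin receptor Acvr1b rose 4.32-fold, from 277, 263 and 264 to 1097, 1315 and 1079, and the ligand Bmp6 was at least 3.37-fold higher. The BMP targets Id1 (2.05-fold), Id2 (2.38-fold) and Id4 (4.15-fold, from 1514, 1233 and 1282 to 296, 346 and 327) fell.

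Of 32 Notch genes 5 rose (15.6%, against 15.5% of all genes) and 6 fell (18.8%, against 10.2%). With spike scaling 2 were higher and 15 lower. Beside the rise of Notch3, Hes6 rose 3.37-fold, and Notch1 (2.00-fold) and its target Hes1 (1.98-fold) fell. The ligand Dll4 was called at 0.69 ± 0.22 by 1 of 2 probe sets, and not without negative control replicate 2 or 3 (0.48 without the latter) or TF group 2 replicate 1 or 2, or with any scaling. Without negative control replicate 2 or TF group 2 replicate 2 the genes higher were 3. Lfng was called lower (-1.15 ± 0.32), with -0.74 without TF group 2 replicate 2 and no call without negative control replicate 3. In the list of 31 IGF and retinoid genes 9 rose and 4 fell, with a median of 0.18 that turned to -0.50 with spike scaling (5 higher, 10 lower). Igf2 fell 7.77-fold, from 7011, 7453 and 7474 to 893, 847 and 1101 (-2.96 ± 0.17, adjusted p = 7.39e-07), while Igf1 rose 2.94-fold, from 254, 244 and 293 to 730, 801 and 787. Aldh1a2, which like Aldh1a1 makes retinoic acid, rose 3.84-fold.

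Stress genes moved in both directions. Of 39 genes of endoplasmic reticulum and amino acid stress 7 rose and 8 fell (median -0.03), and 3 rose and 23 fell with spike scaling. Ddit3, the stress factor CHOP, rose 2.62-fold, from 614, 745 and 576 to 1624, 1687 and 1722, while the serine and folate enzymes Phgdh (2.89-fold), Shmt2 (2.41-fold) and Mthfd2 (2.14-fold) fell. Of 20 heat shock genes 2 rose (10%, against 15.5% of all genes) and 2 fell (10%, against 10.2%), or 1 and 13 with spike scaling. The falls were 1 without TF group 2 replicate 1, where Hspd1 lost its call (-0.56). Of 29 oxidative stress genes 8 rose and 5 fell (3 higher, 14 lower with spike scaling). Gstt1 rose 4.46-fold and the metallothionein Mt1 2.73-fold, and Nqo1 fell 2.01-fold. Without negative control replicate 2 there were 3 falls, as Gpx7 (-0.52) and Slc7a11 lost their calls. Of 35 immediate early genes 3 rose and 12 fell (1 higher, 23 lower with spike scaling). Fos rose 2.94-fold, from 534, 604 and 509 to 1568, 1622 and 1642, and its relative Fosl1 fell 3.22-fold, from 1224, 1286 and 1272 to 384, 353 and 443.

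Among 46 BAF and chromatin genes 4 rose and 12 fell (median -0.30), and 3 were higher and 31 lower with spike scaling. Smarca2, an ATPase subunit of BAF, rose 3.77-fold, from 158, 205 and 212 to 711, 749 and 690, while Smarca4, its alternative, was not called (0.15). Smarca4 was picked after its values were seen. The de novo DNA methyltransferase Dnmt3a rose 2.76-fold, and the maintenance enzyme Dnmt1 fell 3.14-fold with Uhrf1, its recruiter (10.8-fold), Hells (4.65-fold) and Ezh2 (3.10-fold). Of 33 HOX genes 2 were called higher and 2 lower, and with spike scaling none was higher and 16 were lower (median -0.70). Hoxc8 fell 1.81-fold. The calls of Hoxd10 (0.68, lost with each scaling and without negative control replicate 2) and of Hoxa13 (-0.61, lost without negative control replicate 3 or TF group 2 replicate 2 or 3) were not stable. The falls were 4 without TF group 2 replicate 1.

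Markers of other cell types were examined as lists. The summed signal of 20 endothelial markers was 1221 to 1360 in TF group 2 against 1822 to 1973, with 1 higher and 3 lower, and Pecam1, Tie1, Vwf and Icam2 were under 32 on all 6 arrays. The 1 called higher was Icam2, and that call was lost with median or spike scaling and without negative control replicate 2 or 3 or TF group 2 replicate 1, where the change of 1.30 became 0.76. Without negative control replicate 3 the genes higher were Cdh5 and Tek, and without negative control replicate 2 Esam. That of 21 macrophage markers was 1189 to 1239 against 1223 to 1332, with 1 higher and 3 lower. The 3 falls were Lyz1, Lyz2 and Ctss, the rise was Cd53 (3.18-fold), joined by Csf1r without negative control replicate 1 or TF group 2 replicate 2, and C1qa and C1qc were under 32 on all 6 arrays. The epithelial sum was 4131 to 4542 against 1629 to 1876, with 4 of 21 higher (19.0%, against 15.5% of all genes) and 2 lower (9.52%, against 10.2%). The 4 were Krt18 (5.08-fold), Perp, Spint2 and Ovol1, the last lost with spike scaling. Esrp1 was under 32 on all 6 arrays, and the defining Cdh1 (0.71), Epcam (0.31) and Krt8 (-0.13) were not called. The neuronal sum was 7736 to 8284 against 4397 to 4849, with 6 of 21 higher (28.6%, against 15.5% of all genes) and 2 lower (9.52%, against 10.2%). Nefl, a neurofilament chain, was at least 24.5-fold higher, with 751, 781 and 824 against 26.2, 26.6 and 7.04, and its log2 change of 5.53 was 4.90 without negative control replicate 3. Nefm rose 11.9-fold. Of the 2 that fell, Gfra1 (-2.16) lost its call without negative control replicate 2 or 3 or TF group 2 replicate 1 or 2. The adipocyte sum was 8619 to 9289 against 3105 to 3245, and the rise of Car3 given above makes up much of that difference. The median change of the list was -0.05, with 3 of 18 higher (16.7%, against 15.5% of all genes). These were Car3, Lpl and Scd1, the last lost with spike scaling. Another 2 were lower (Fabp4 and Pparg), and Adipoq, Lep and Cidec were under 32 on all 6 arrays. The chondrocyte and bone sum was 852 to 982 against 1097 to 1131, with 1 of 16 higher and 3 lower, and 1 lower, Col2a1, without negative control replicate 1 or 3 or TF group 2 replicate 3, as Comp and Matn3 lost their calls. Without negative control replicate 2 Sox5 was added as higher. Matn1, Dmp1 and Phex were under 32 on all 6 arrays. With spike scaling the counts higher and lower were 0 and 6 for endothelial, 1 and 8 for macrophage, 3 and 5 for epithelial, 4 and 6 for neuronal, 2 and 7 for adipocyte and 0 and 4 for chondrocyte and bone markers. The part of such cells in the changes above was not tested.

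**Figure D4:**
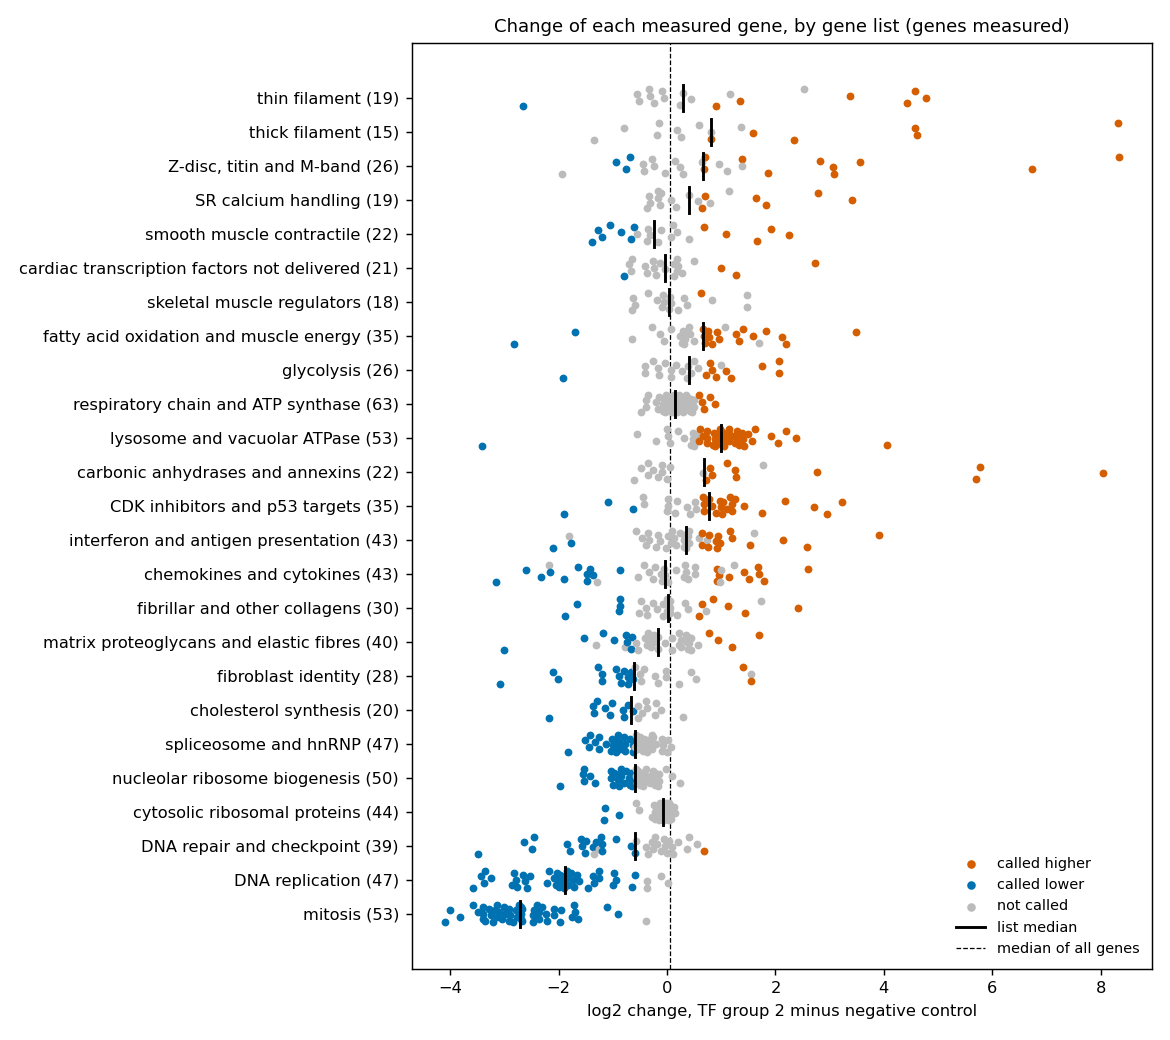
Log2 change of each measured gene in 25 of the gene lists, 1 point a gene, with orange for called higher, blue for called lower, grey for not called, a black bar at the list median and a dashed line at the median of all genes. The mitosis and DNA replication medians stand at -2.72 and -1.88 and the lysosome median at 0.99.

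TF group 2 differs from TF group 1 by Mesp1 and SMARCD3, and the difference was tested directly. It called 268 genes higher in TF group 2 (2.16% of those tested) and 240 lower (1.94%), the latter 42 with spike scaling. Mesp1 was 18.1-fold higher than in TF group 1, while Smarcd3 differed by 0.46 and was not called. Myl1, at 21.0, 23.5 and 41.9 in TF group 1, differed by at least 244-fold (8.29 ± 0.30, adjusted p = 5.52e-07), and F13a1, at 29.5, 26.5 and 30.0 there, at least 109-fold (6.93 ± 0.10, adjusted p = 1.45e-09). Grp differed by at least 156-fold, Car2 by 42.8-fold, Nefl by at least 24.5-fold and Car3 by 14.3-fold. Ptgds, prostaglandin D synthase, had 734, 789 and 777 in TF group 2 against 40.3, 40.2 and 42.3 in TF group 1 (18.7-fold) and 122, 92.2 and 68.1 in the negative control. The chaperone clusterin (Clu) was 4.28-fold lower than in TF group 1, with 800, 983 and 889 against 3862, 3657 and 3895, and both sets stood above the 140, 158 and 190 of the negative control. Sfrp2 was 5.37-fold lower, Fgl2 5.15-fold and Abi3bp 4.79-fold. Vip was 5.68-fold lower, a call lost with spike scaling, without TF group 1 replicate 1 or 3 and without TF group 2 replicate 1. By list, 4 of 26 Z-disc genes were higher than in TF group 1 and none lower, and of 43 chemokines and cytokines 2 were higher and 9 lower. The mitosis list differed at 3 of 53 genes, all lower in TF group 2.

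TF group 3 was labelled as given MYOCD and SRF beyond the factors of TF group 2. Per the study's methods, expression of the delivered factors was established by qualitative RT-PCR. At the mouse probes of the array neither Myocd nor Srf stood higher in TF group 3. In TF group 2, 228 genes were higher than in TF group 3 (1.84%) and 308 lower (2.49%), or 88 and 117 with spike scaling. Myh11, smooth muscle myosin, had 63.6, 97.6 and 74.7 in TF group 2 against 2890, 2880 and 2676 in TF group 3 (-5.18 ± 0.14, 36.3-fold lower, adjusted p = 1.94e-07), and was not called against the negative control (0.41). Mylk, myosin light chain kinase, had 740, 813 and 786 against 5880, 5736 and 6137 (7.59-fold lower), and Aoc3 was 7.02-fold lower. Of 22 smooth muscle genes 7 were lower than in TF group 3 and 1, Notch3, was higher, a call lost with spike scaling. Against TF group 3 that scaling hardly moved the differences themselves, with Notch3 at 0.67 in place of 0.66. Nppa was 11.5-fold lower, with 1425, 1416 and 2068 in TF group 3, and 7 of 19 thin filament genes were lower and 2, Lmod2 and Tnni1, higher. The Tnni1 call was lost with spike scaling and without any 1 of 5 arrays. Sez6l2 (26.5-fold), Efhd1 (at least 22.3-fold), Stmn3 (9.62-fold) and Lhx1 (at least 9.57-fold) were also lower. Higher in TF group 2 were Grp (3.42 ± 0.41, 10.7-fold), Anxa10 (6.35-fold), Nefl (5.93-fold), the proteoglycan Lum (4.71-fold, a log2 difference of 2.23 that was 2.84 without TF group 3 replicate 2) and Hopx, with 1764, 1817 and 1800 against 490, 415 and 457 (1.99 ± 0.08, 3.96-fold, adjusted p = 2.61e-06). No fibroblast identity gene of 28 was lower than in TF group 3 and 4 were higher, and of 40 proteoglycan genes 6 were higher and none lower.

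**Figure D5:**
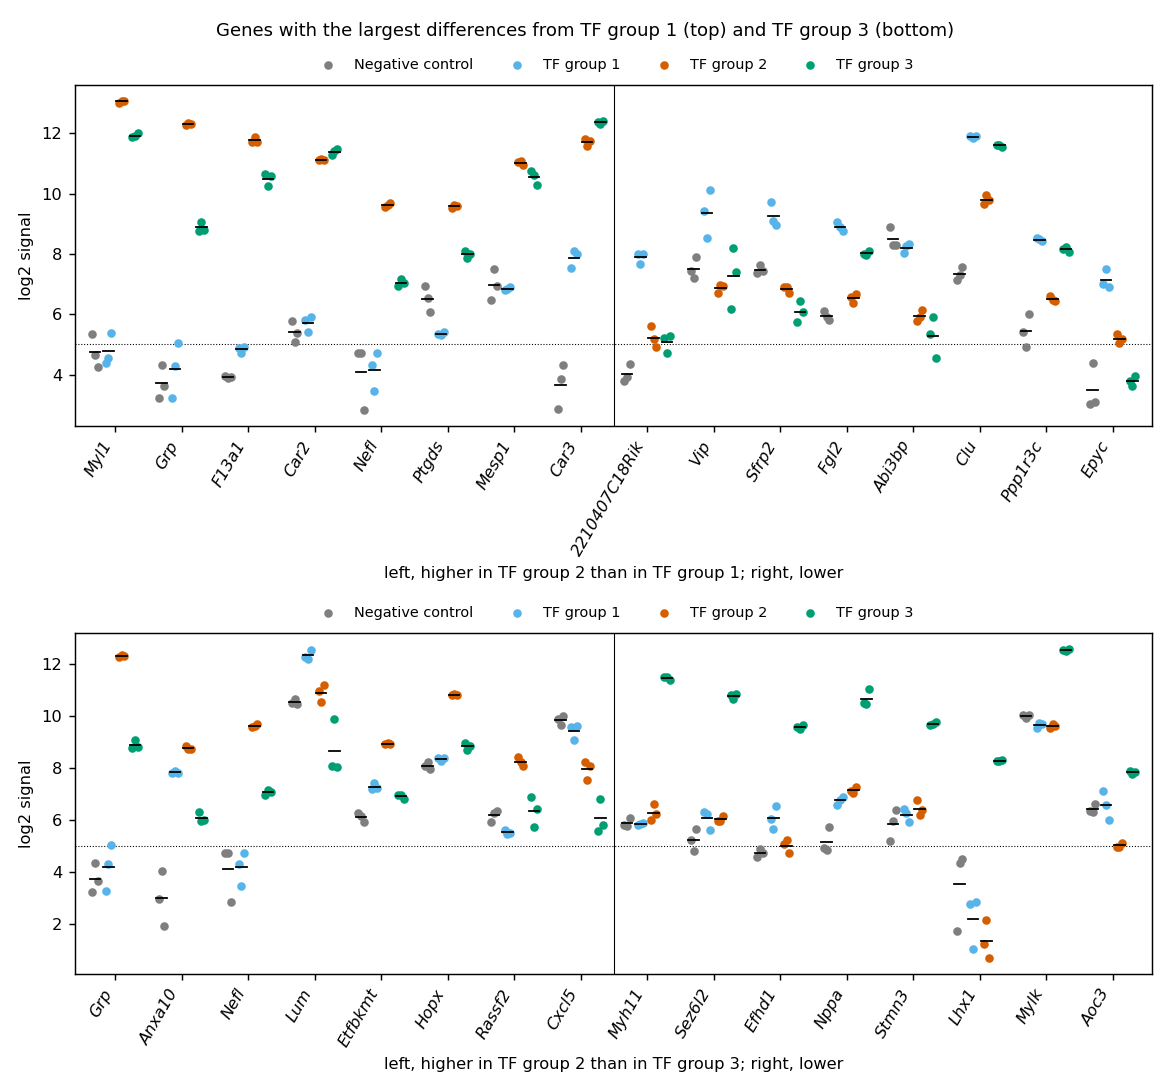
Log2 signal on all 12 arrays, by group, of the 8 genes per direction with the largest difference from TF group 1 (top) and from TF group 3 (bottom). Myl1 and F13a1 separate TF group 2 from TF group 1, and Myh11 and Mylk are high in TF group 3 alone.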

How the data were processed

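RNA from 12 mouse embryonic fibroblast cultures was read on Affymetrix Mouse Genome 430A 2.0 arrays. The deposited values were 1 intensity for each of 22690 probe sets on a linear scale, scaled by the authors so that the mean without the lowest and highest 2% was close to 500 on every array. The labels name RMA and Partek with no version. RMA gives log2 values, so the method that produced this linear signal is not known. Background-subtracted low intensities are noisy, and a signal of 32 (log2 of 5) was used as the floor for folds. The number of arrays limits the precision.

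The 64 control probe sets were left out. Of the rest, 20380 had 1 gene symbol, 691 several and 1555 none. The probe set with the highest mean log2 signal over all 12 arrays stood for each of 12393 genes (4956 genes had several). As most arrays came from cells given factors, this choice can favour a probe set that rose with them. With the mean of a gene's probe sets instead, 1809 genes were higher and 1188 lower than the negative control. Log2 intensities of all 12 arrays were fitted with 1 mean a group in limma 3.58.1 (R 4.3.3), with Benjamini-Hochberg adjustment, and a gene was called at an adjusted p under 0.05 and a fold over 1.5. Tests of TF group 2 against the negative control, TF group 1 and TF group 3 came from that fit, which was tested on simulated data. The genes named are the 15 with the largest change each way whose arrays did not overlap (ranked with arrays under 32 set to 32), up to 4 called members of each list each way, the 8 with the largest change each way against TF groups 1 and 3, and defining members that were not called. The comparison and the 53 gene lists (1513 of 1716 symbols measured) were chosen with earlier results of these data known. Replicate numbers were not used as pairs in the main fit. Correlations of deviations between same-numbered arrays of TF group 2 and the negative control were 0.012, -0.002 and -0.005 over all probe sets, dim and noisy ones included. Over brighter probe sets only they were 0.119, -0.047 and 0.051, and arrays of unlike number gave -0.193 to 0.157. With 3 arrays a group these values do not settle whether the numbers pair the arrays. Promoter sequences are those of RefSeq (GRCm38.p6), 1 start a gene, and 9887 of the measured genes had one. Alternatives were other scalings, an offset of 32 on the signal, unadjusted p-values, a fold over 2, the mean of a gene's probe sets, the replicate block and leaving out each array.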

Additional observations from a re-analysis of the deposited data

Results flagged for a closer look

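The poly-A spikes, synthetic transcripts outside the gene measurements, were brighter in TF group 2 by 0.672 log2 units over the negative control, a difference that ran from 0.525 to 0.880 when 1 array was left out. The 18S ribosomal RNA probe sets were 1.05 log2 units brighter, with a range of 0.995 to 1.14. Both are signals of control probe sets, which were not tested as genes, and the spikes were used only for spike scaling.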

How the results depend on the processing

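With arrays scaled to their poly-A spikes, calls against the negative control were 903 probe sets higher and 9107 lower (3111 and 2258 as reported), and 573 genes higher and 5064 lower (1918 and 1259). Against TF group 1 this scaling left 42 genes lower, and against TF group 3 88 higher and 117 lower. A fold over 2 gave 1620 and 1086 probe sets and 1008 and 614 genes against the negative control, 149 and 75 genes against TF group 1, and 87 and 132 against TF group 3. Unadjusted p-values gave 412 and 407 genes against TF group 1 and 395 higher against TF group 3. Leaving out 1 array at a time gave 2950 to 3236 probe sets higher and 2134 to 2272 lower, 1831 to 1950 genes higher and 1221 to 1283 lower, 215 to 252 and 195 to 230 genes against TF group 1, and 194 to 217 and 244 to 282 against TF group 3. Of the 3177 genes called, 2913 to 2943 remained called. The replicate block gave 3089 and 2229 probe sets, 1907 and 1253 genes against the negative control, 246 and 217 against TF group 1 and 218 and 292 against TF group 3, and 303 of 306 named genes kept their call with it. TF group 2 replicate 1 correlated best with its own number in the pairing check, and replicates 2 and 3 did not, which leaves pairing unsettled. Chrna1 (-0.044), Uqcrh (-0.032) and Fgl2 (-0.078) changed sign with spike scaling. With the mean of all probe sets of a gene, Fdps (0.45), Col5a3 (0.10) and Dll4 (-0.16) changed sign, since a second probe set of each differed. Of the 306 named genes, 297 kept their call with median scaling, 299 with quantile scaling, 251 with spike scaling and 288 with the offset of 32. Signals near the floor limit precision: the median SD between arrays was 0.829 log2 units for probe sets under log2 5 and 0.067 over 11. The causes of these changes were not tested, other than the construction of the settings. List counts under other settings, and the settings run for genes named against TF groups 1 and 3, were chosen after seeing the data.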
